A study of Mus musculus with 18 samples.

Results

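A set of 10 genes that mark mast cells and basophils was followed through every library of the series: Cpa3, Tpsb2, Cma1, Mcpt4, Mcpt8, Hdc, Kit, Fcer1a, Ms4a2 and Fcer1g. They were taken by name, but with earlier results of these data known. They make up 10 of 23284 gene symbols in the mouse tables and 8 of 25548 in the human ones, where Mcpt4 and Mcpt8 had no row under these symbols. There were 18 libraries, 3 in each of 6 groups, all labelled as BALB/c mouse. Memory T helper 2 (Th2) cells high in ST2, the receptor for IL-33, were kept for 3 days with IL-2, without or with added IL-33. Eosinophils were kept for 3 days without or with amphiregulin, a ligand of the EGF receptor, and whole lung was taken from ovalbumin (OVA) treated wild-type mice or from OVA-treated mice labelled dGATA and knock out. The series' design text names house dust mite where the lung labels name OVA, and the labels give neither the age of the mice, the allele behind dGATA nor the way the eosinophils were obtained. The eosinophil tables list human symbols and coordinates, so they are read as human here although the labels say mouse. Nothing in the labels says that replicates came from different animals or cultures, and the spread behind each p-value may therefore be technical.

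Mast cells are tissue-resident granulated cells that develop under Kit, the receptor for stem cell factor. Their granules hold histamine, made by histidine decarboxylase (Hdc), together with carboxypeptidase A3 (Cpa3), tryptases (Tpsb2) and chymases (Cma1, Mcpt4). Basophils are short-lived blood granulocytes that share Hdc, Cpa3 and the IgE receptor with mast cells, and in the mouse Mcpt8 is regarded as their own protease. The high-affinity IgE receptor is built from the IgE-binding alpha chain (Fcer1a), the beta chain (Ms4a2) and the signalling gamma chain (Fcer1g), which many other myeloid receptors use as well. GATA factors, which bind the letters GATA in DNA, control many genes of mast cells, basophils and eosinophils.

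All values are FPKM, fragments scaled to transcript length and library size, so levels of different genes can be set side by side per length. Read totals are not known here. Estimated depth, set to 1 in library 1 (2 in the eosinophils), spanned 0.67 to 1.33 for Th2 cells, 0.36 to 1.0 for eosinophils and 0.58 to 1.0 for lung. No housekeeping gene was listed at 0 in any library. Summed T cell markers reached 2250 to 2910 FPKM in the Th2 cells and summed lung epithelial markers 82300 to 121000 FPKM in the lung. In the human libraries each of the 11 eosinophil markers in the table was detected in at least 1 library, with sums of 1420 to 5580 FPKM, beside 6760 to 21800 FPKM of neutrophil, 208 to 2550 FPKM of macrophage and 1730 to 80300 FPKM of erythroid markers. Most of the eosinophil sum was CLC, which is also among the listed basophil genes. CLC stood at 1240 to 4480 FPKM without and 867 to 2620 FPKM with amphiregulin. EPX, another eosinophil marker, did not exceed 1.45 FPKM without and 23.6 FPKM with it. Gata1, taken as the check of the dGATA label, stood at 1.65, 1.23 and 0.963 FPKM in the wild-type lungs (1, 2, 3) and at 0.126, 0.134 and 0.314 FPKM in the dGATA lungs. The groups did not overlap (exact two-sided permutation p = 0.1, the smallest 3 against 3 libraries allow).

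The stretches of DNA before the start sites were read from RefSeq's promoter table (GRCm38.p6), because the lung label dGATA carries the name of these factors and several members were low in the same lung library; the search was chosen after the values had been seen. Of the 10 members, 9 had an entry, and the 250 bases upstream of each start were searched on both strands for AGATAA and TGATAA (read as TTATCT and TTATCA on the other strand). At least 1 of these runs of letters was present in 4 of the 9 members, and in 16.6% of all 32851 windows of the same length. A match is a description of the letters and not a binding site. The 4 windows are printed 5′ to 3′ on the gene's strand, with the matches in capitals.
Cpa3 (chr3:20242182-20242431, minus strand): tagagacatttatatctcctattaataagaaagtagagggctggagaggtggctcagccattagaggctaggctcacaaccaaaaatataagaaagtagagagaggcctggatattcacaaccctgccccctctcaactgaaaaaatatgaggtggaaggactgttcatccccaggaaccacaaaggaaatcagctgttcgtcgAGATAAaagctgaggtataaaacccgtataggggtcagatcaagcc
Mcpt4 (chr14:56062311-56062560, minus strand): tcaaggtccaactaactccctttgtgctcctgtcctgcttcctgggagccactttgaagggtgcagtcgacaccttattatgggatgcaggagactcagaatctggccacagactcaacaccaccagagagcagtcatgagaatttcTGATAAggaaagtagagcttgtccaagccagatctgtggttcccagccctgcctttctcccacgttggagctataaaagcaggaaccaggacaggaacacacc
Fcer1a (chr1:173227230-173227479, minus strand): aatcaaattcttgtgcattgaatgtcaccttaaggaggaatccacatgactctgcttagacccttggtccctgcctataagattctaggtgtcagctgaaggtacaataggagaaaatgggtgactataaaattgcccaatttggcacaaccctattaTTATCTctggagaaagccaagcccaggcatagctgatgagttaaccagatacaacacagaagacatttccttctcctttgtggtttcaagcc
Ms4a2 (chr19:11623720-11623969, minus strand): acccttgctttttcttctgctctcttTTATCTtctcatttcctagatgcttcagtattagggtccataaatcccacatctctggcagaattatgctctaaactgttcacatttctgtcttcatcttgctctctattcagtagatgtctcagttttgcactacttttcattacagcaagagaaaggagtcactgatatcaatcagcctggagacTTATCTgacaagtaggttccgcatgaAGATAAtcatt
The match began 46 bases upstream of the RefSeq start in Cpa3, 103 in Mcpt4 and 92 in Fcer1a, and Ms4a2 held matches at 224, 37 and 11 bases. The windows of Cma1, Mcpt8, Hdc, Kit and Fcer1g held neither run.

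In the mouse tables (mm10) all 10 members are protein-coding genes. The proteases Cma1 (chr14:55941451-55944661), Mcpt4 (chr14:56059744-56062310) and Mcpt8 (chr14:56082164-56085197) lie on the minus strand of chromosome 14. Cpa3 (chr3:20215616-20242181) and Hdc (chr2:126593668-126618665) are on the minus strand, and Kit (chr5:75574987-75656721) and Tpsb2 (chr17:25366333-25368092) on the plus strand. The receptor chains Fcer1a (chr1:173221271-173227229), Fcer1g (chr1:171229572-171234349) and Ms4a2 (chr19:11617193-11623643) are all on the minus strand. Cpa3 spans the microRNA gene Mir7007 and Mcpt8 spans Mir6949, each on the same strand. Tpsb2 and its neighbour Tpsab1, and Mcpt1 and Mcpt2, are close copies, so the division of reads within each pair is uncertain.

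The members separated whole lung from cultured Th2 cells. In lung, Fcer1g was the highest member, at 99.2 ± 5.86 FPKM in wild type and 91.5 ± 52.7 in dGATA (SD, n = 3 each). Kit reached 41.7 ± 3.42 and 39.3 ± 6.96 FPKM and Hdc 41.6 ± 4.17 and 54.4 ± 21.7 FPKM in the same groups. The granule proteases were lower, with wild-type means of 8.37 ± 3.53 FPKM for Cma1, 8.09 ± 4.46 for Tpsb2, 7.20 ± 2.25 for Cpa3 and 3.11 ± 1.22 for Mcpt4. The IgE-binding chain Fcer1a stood at 1.23 ± 0.475 FPKM, Mcpt8 at 0.594 ± 0.353 FPKM and the beta chain Ms4a2 at 0.251 ± 0.170 FPKM in wild type. Thus the gamma chain, shared with other receptors, was far above the 2 chains that are particular to the IgE receptor in the mouse. In bulk tissue, fewer cells of a type and less RNA per cell cannot be told apart.

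In the Th2 cells, Tpsb2, Mcpt4 and Ms4a2 were listed at 0 in all 6 libraries. Cpa3, Kit, Cma1, Mcpt8, Fcer1a and Fcer1g did not exceed 0.165 FPKM in any of them. For 9 of the 10 members the lung groups lay above the Th2 groups in every library. The exception was Mcpt8, whose highest Th2 library, at 0.160 FPKM, overlapped dGATA lungs at 0.0794, 0.203 and 0.176 FPKM. The order of the group means was wild-type lung, dGATA lung and then the Th2 groups for 9 members, and for Hdc dGATA lung came first. The 2 lung groups overlapped for every member other than Mcpt4 and Mcpt8, and the 2 Th2 groups overlapped for all 10. Lung and Th2 libraries are separate experiments, and no test was made between them.

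**Figure D1:**
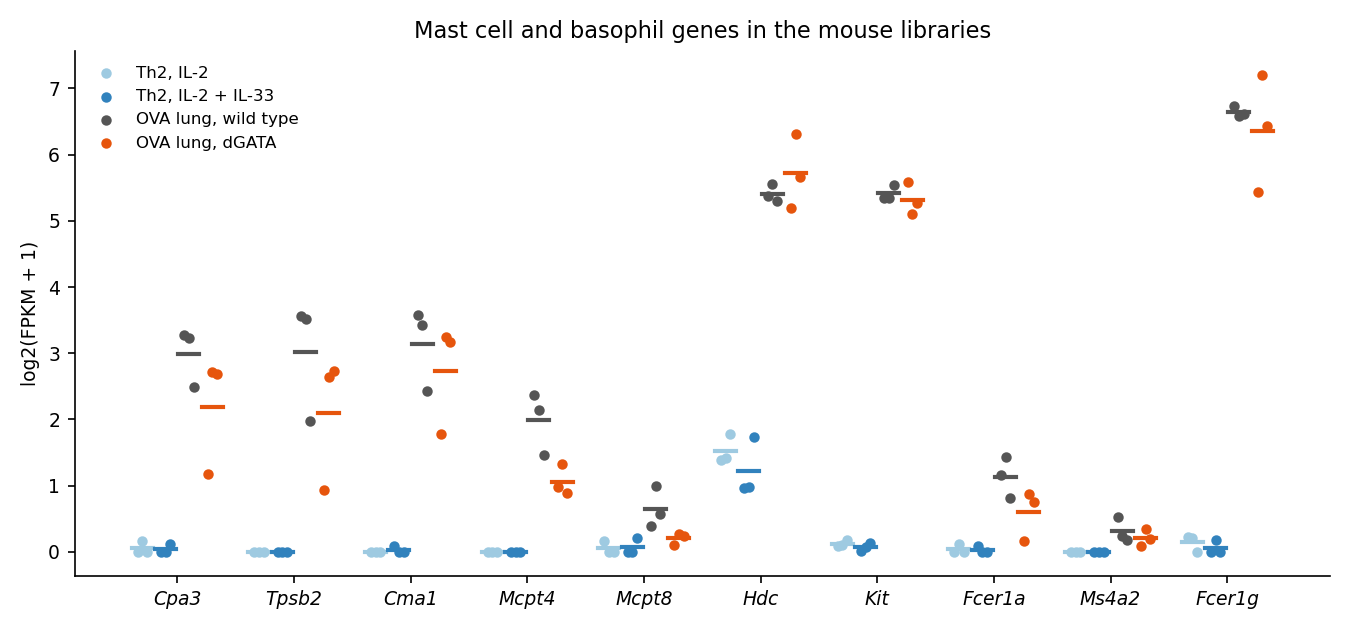
Levels of the 10 members in the 12 mouse libraries, on a log2(FPKM + 1) axis; each point is 1 library and each bar a group mean (n = 3). The Th2 points lie at or near 0 for every member but Hdc, and in lung Fcer1g, Kit and Hdc lie above the proteases.

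IL-33 was compared with IL-2 alone to see what it changes in memory Th2 cells. Of the members, Hdc alone passed the filter of at least 1 FPKM in at least 3 of 6 libraries. It stood at 1.62, 1.67 and 2.42 FPKM with IL-2 (libraries 1, 3 and 5) and at 0.953, 0.975 and 2.33 FPKM with IL-33 (libraries 2, 4 and 6). Libraries 2 and 4 were below all IL-2 libraries and library 6 was within their range. Libraries 5 and 6, the highest of their groups, also had the lowest estimated depths, 0.67 and 0.74, whose part in this was not tested. The difference in log2(FPKM + 1) was -0.30 (SE 0.230), and limma's Benjamini-Hochberg adjusted p was 0.324, so 0 members were called against 42.1% of the 10296 genes tested. Without IL-33 library 6 the difference was -0.55 and the adjusted p from limma 0.0235, in a fit that called 1727 genes higher and 3135 lower of 10296. The 6 members detected below the filter gave exact two-sided permutation p-values from 0.4 to 1.0, and 0 members had an unadjusted p under 0.05. Over all genes tested by limma, 5314 of 10296 had one.

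Th2 cells nevertheless expressed genes that are shared with mast cells and basophils, and several of them changed with IL-33. Of 24 other mast cell genes, 4 passed the filter, and 3 rose and 0 fell (median log2 difference 1.14, against -0.106 over all genes tested). Il1rl1, which encodes ST2, went from 57.9, 52.1 and 44.5 FPKM to 517, 515 and 506 FPKM (log2 difference 3.30, SE 0.108, adjusted p = 7.09e-06, limma). Srgn, the core protein that carries granule proteases, rose from 1790 ± 50.6 to 4200 ± 470 FPKM (adjusted p = 0.000751, limma), and Cd63, a granule membrane protein, rose from 0.790 ± 0.199 to 2.74 ± 0.217 FPKM (adjusted p = 0.000766, limma). Cd63 did not exceed 0.942 FPKM with IL-2 and passed the filter only through the IL-33 libraries. It could thus enter the count and the median only as a rise. The granule proteases Mcpt2 and Mcpt9, Tpsg1 and the mast cell receptors Mrgprb1 and Mrgprb2 were listed at 0 in all 6 libraries. Il1rl1, Srgn and Cd63 are also expressed by T cells.

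Of 18 basophil genes, 11 passed the filter, of which 4 rose and 4 fell. In these lists, too, counts are to be read against the 42.1% called over all genes. Il3ra, the IL-3 receptor alpha chain, rose from 3.86 ± 0.104 to 11.5 ± 0.558 FPKM and the cytokine Osm from 30.8 ± 1.38 to 54.8 ± 3.12 FPKM. Cd69, an activation marker, fell from 640 ± 262 to 165 ± 24.8 FPKM. Cd200r3, an activating receptor of basophils and mast cells, stood at 1.49, 1.67 and 1.93 FPKM with IL-2 and at 0.374, 0.0505 and 0.0783 FPKM with IL-33 (log2 difference -1.22, SE 0.140, adjusted p = 0.000914, limma). Every IL-33 library was under every IL-2 library for this gene, which passed the filter only through the IL-2 libraries and could be called only as a fall. The basophil protease Prss34 was listed at 0 in all 6.

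Among growth factors for mast cells, 3 of 9 tested genes rose and 2 fell. Il10 rose from 217 ± 152 to 2860 ± 325 FPKM and the IL-9 receptor Il9r from 1.00 ± 0.233 to 3.02 ± 0.561 FPKM. Il9, a mast cell growth factor, fell from 478 ± 141 to 130 ± 95.6 FPKM and Il18 from 9.19 ± 3.93 to 0.0588 ± 0.0510 FPKM (limma, adjusted p = 0.0121 and 0.000151). Of the histamine genes, the receptor Hrh2 rose from 7.09 ± 1.19 to 13.7 ± 0.350 FPKM and the receptor Hrh4 fell from 2.57 ± 0.188 to 0.414 ± 0.227 FPKM, while 3 of the 8 in the table passed the filter. Il18 and Hrh4 did not exceed 0.0916 and 0.546 FPKM with IL-33. Both passed the filter only through the IL-2 libraries and could be counted only as falls.

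The signalling chain below the IgE receptor is largely shared with the T cell receptor, and 26 of 30 listed genes passed the filter in Th2 cells. Of these, 5 rose and 6 fell, 11 of 26, a share near the 42.1% of all tested genes that were called. Among the rises was Rasgrp4, which passed the filter only through the IL-33 libraries and could be counted only as a rise. The adaptor Lat fell from 612 ± 36.1 to 348 ± 7.47 FPKM and the phosphatase Ptpn6 from 74.1 ± 23.1 to 26.2 ± 1.68 FPKM. Vamp8, which serves granule fusion, rose from 57.3 ± 4.69 to 90.8 ± 9.17 FPKM and the exchange factor Sos1 from 5.47 ± 0.357 to 10.1 ± 1.70 FPKM. In the list of other Fc receptor genes, the 2 tested genes rose, neither of them an Fc receptor itself. Cd247, the zeta chain of the T cell receptor, rose from 79.3 ± 1.96 to 129 ± 1.83 FPKM and Lgals3, an IgE-binding lectin, from 3.54 ± 1.86 to 28.6 ± 4.26 FPKM. The Fc receptors of that list, Fcer2a, Fcgr1, Fcgr2b, Fcgr3, Fcgr4 and Fcgrt, were below the filter. In the list made for partners of the gamma chain, Bst2, which does not itself pair with that chain, fell from 525 ± 82.9 to 98.4 ± 12.3 FPKM. In that list 1 further gene was tested. Of 4 tested protease inhibitors and substrates, Cst3 and Dpp4 rose and Serpinb6b fell. Rescaling to a common sum moved the median over all genes from -0.106 to -0.0119, and the share of calls that were rises from 38.8% to 55.6%, so the direction of small changes depends on it.

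Wild-type and dGATA lung were compared after OVA. Cpa3, Tpsb2, Cma1, Mcpt4, Mcpt8, Fcer1a and Ms4a2 had lower means in dGATA lung, as did Kit and Fcer1g, and Hdc had a higher mean, but 0 of the 10 members were called. By the same rule limma called 0.0947% of the 13727 genes tested, 13 in all. Of the 7 members that passed the filter, 6 had a difference below 0 and the median was -0.412 on the log2(FPKM + 1) scale, against 59.1% below 0 and a median of -0.0338 over all genes tested. Their adjusted p-values from limma ran from 0.56 to 0.94, and 1 member, Mcpt4, had an unadjusted p under 0.05. Over all genes tested, 939 of 13727 had one.

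The chymase Mcpt4 stood at 4.14, 3.43 and 1.77 FPKM in wild type (lungs 1, 2, 3) and at 0.961, 1.5 and 0.854 FPKM in dGATA. Every dGATA library was below every wild-type library. The log2 difference was -0.93 (SE 0.254), with an unadjusted p of 0.00959 and an adjusted p of 0.56 from limma. Mcpt8, the basophil protease, stood at 0.308, 0.988 and 0.487 FPKM against 0.0794, 0.203 and 0.176 FPKM. Its groups did not overlap either (exact two-sided permutation p = 0.1, the smallest possible), at levels below the filter. Over all genes tested, 14.1% had groups that did not overlap, and among the 10 members it was these 2, of which Mcpt4 had passed the filter.

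The other proteases overlapped between the groups. Cpa3 stood at 8.66, 8.34 and 4.61 FPKM in wild type and at 1.25, 5.56 and 5.42 FPKM in dGATA (log2 difference -0.81, SE 0.458, adjusted p = 0.782, limma). Tpsb2 stood at 10.8, 10.5 and 2.94 FPKM against 0.912, 5.24 and 5.63 FPKM (log2 difference -0.92, SE 0.627, adjusted p = 0.834, limma). Cma1 stood at 11.0, 9.73 and 4.36 FPKM against 2.43, 8.51 and 8.02 FPKM (log2 difference -0.41, SE 0.483, adjusted p = 0.923, limma). In all 3 genes wild-type lungs 1 and 2 were highest, dGATA lung 1 was lowest, and wild-type lung 3 lay below dGATA lungs 2 and 3.

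The IgE receptor chains showed the same low library. Fcer1a stood at 1.23, 1.70 and 0.751 FPKM in wild type and at 0.123, 0.835 and 0.681 FPKM in dGATA (exact two-sided permutation p = 0.2). Ms4a2 stood at 0.444, 0.179 and 0.128 FPKM against 0.0625, 0.266 and 0.139 FPKM (exact two-sided permutation p = 0.6). Fcer1g stood at 106, 94.9 and 96.9 FPKM against 42.4, 147 and 85.0 FPKM (log2 difference -0.29, SE 0.415, adjusted p = 0.94, limma). The wild-type libraries were close to each other for Fcer1g, and dGATA lungs 1 and 2 lay on either side of them.

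Hdc and Kit did not follow the proteases. Hdc stood at 40.4, 46.3 and 38.2 FPKM in wild type and at 35.5, 78.1 and 49.5 FPKM in dGATA (log2 difference 0.31, SE 0.273, adjusted p = 0.891, limma). Kit stood at 39.7, 39.8 and 45.7 FPKM against 46.9, 33.3 and 37.6 FPKM (log2 difference -0.10, SE 0.140, adjusted p = 0.94, limma). For Kit the order of the dGATA libraries was the reverse of that for Hdc and Fcer1g, with lung 1 highest.

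DGATA lung 1 stood apart for most members, being the lowest of the 6 lungs for 8 of the 10. Relative to the wild-type mean it held 0.174 of Cpa3, 0.113 of Tpsb2, 0.290 of Cma1, 0.0999 of Fcer1a and 0.427 of Fcer1g. The same library was low in markers of other blood cells: summed macrophage markers were 661 FPKM against 1530 to 2310 FPKM in the other lungs, summed T cell markers 71.0 against 110 to 192 FPKM and summed B and plasma cell markers 139 against 213 to 484 FPKM. It was high in summed epithelial markers, at 121000 against 82300 to 103000 FPKM, and in Kitl, the ligand of Kit, at 53.6 against 19.9 to 30.1 FPKM. The part of these shifts in the members' values was not tested. Without that library the dGATA mean was 0.762 of the wild-type mean for Cpa3, 0.672 for Tpsb2, 0.987 for Cma1, 0.618 for Fcer1a, 0.378 for Mcpt4 and 0.319 for Mcpt8. It was 0.849 for Kit and 0.808 for Ms4a2, and above the wild-type mean for Fcer1g (1.17) and Hdc (1.53). The log2 difference of Cpa3 then went from -0.81 to -0.30 and that of Tpsb2 from -0.92 to -0.34, whereas Mcpt4 went from -0.93 to -0.89. Cma1 and Fcer1g turned to 0.07 and 0.17 without it, and Kit turned to 0.01 without dGATA lung 2.

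**Figure D2:**
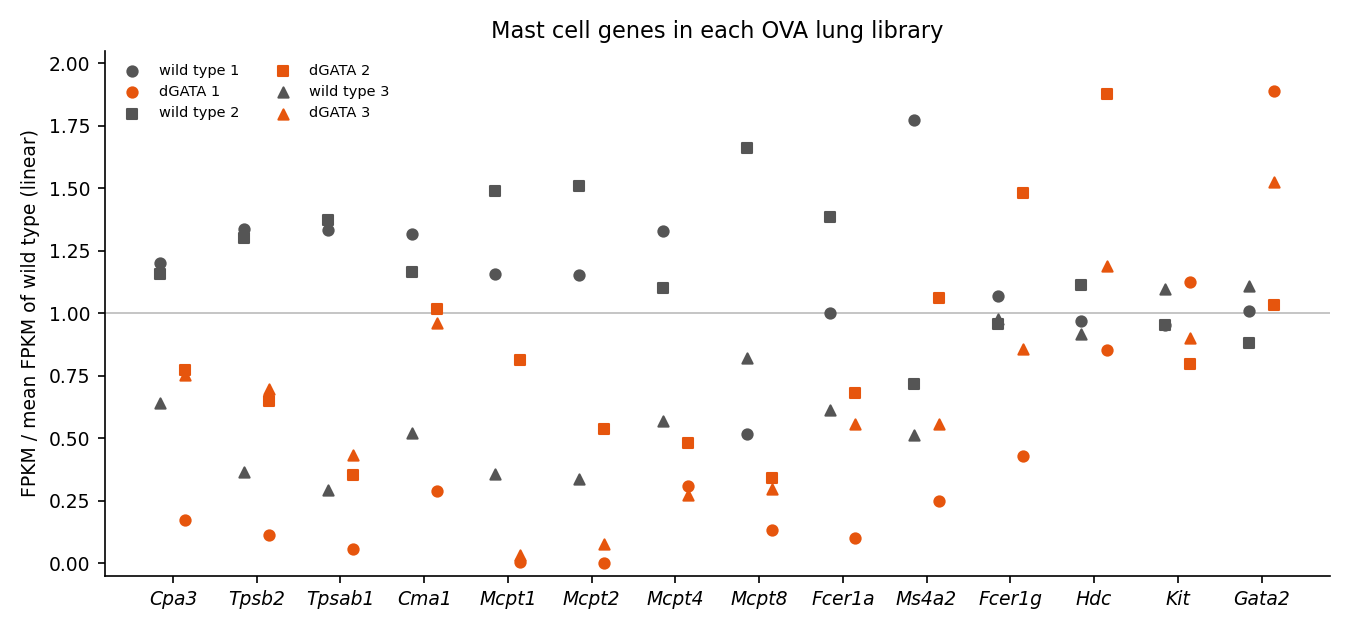
FPKM of each lung library divided by the wild-type mean of that gene, on a linear axis; grey symbols are the 3 wild-type and orange the 3 dGATA libraries, and the line marks the wild-type mean. DGATA lung 1 is lowest for 8 of the 10 members, and both groups are apart for Mcpt4 and Mcpt8.

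Other mast cell genes gave no call in lung. Of 24 listed genes 17 passed the filter, with 0 called and 13 below 0 (median -0.175, against -0.0338 over all genes tested). The lowest p belonged to Mcpt2, a protease of mucosal mast cells, which stood at 22.1, 28.9 and 6.44 FPKM in wild type and at 0, 10.3 and 1.46 FPKM in dGATA (log2 difference -2.51, SE 0.952, unadjusted p = 0.0368, adjusted p = 0.703, limma). Its neighbour Mcpt1, outside the naming rule and picked after its values were seen, stood at 31.9, 41.1 and 9.80 FPKM against 0.183, 22.4 and 0.950 FPKM. Tpsab1, the second tryptase and likewise picked afterwards, stood at 13.1, 13.5 and 2.86 FPKM against 0.567, 3.45 and 4.25 FPKM. In these 3 genes, too, wild-type lung 3 was far below wild-type lungs 1 and 2, and the groups overlapped.

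The remaining lists were not called in lung either. Of 12 basophil genes tested, 6 were below 0, and Il4 had the lowest p, at 1.24, 1.83 and 1.67 FPKM in wild type and 0, 0.770 and 0.699 FPKM in dGATA (adjusted p = 0.583, limma). Il4 passed the filter only through wild type. In this list and among the growth factors it could therefore be counted only as below 0. The basophil genes Prss34 and Cd200r3 had wild-type means of 0.101 and 0.653 FPKM. Of 30 genes of signalling below the IgE receptor, 24 were below 0 (median -0.133), led by Rasgrp4, an exchange factor of mast cells and granulocytes, at 5.81, 5.96 and 4.86 FPKM against 2.42, 2.22 and 3.34 FPKM. No dGATA library reached the wild-type range for Rasgrp4 (log2 difference -0.85, SE 0.144, unadjusted p = 0.000882, adjusted p = 0.282, limma). Of 9 tested growth factors 5 were below 0, and Il3 and Il9 were listed at 0 in all 6 lungs. The histamine, Fc receptor, gamma chain partner and protease inhibitor lists had 3, 8, 12 and 7 tested genes and 0 calls, with Slc22a3, Fcgrt, Clec4d and Serpina3n having the lowest p (adjusted p = 0.633, 0.807, 0.593 and 0.824, limma).

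Genes of eosinophils were among the 13 called. Of 8 tested eosinophil markers, 3 fell in dGATA lung and all 8 were below 0. Ccr3, the eotaxin receptor, stood at 5.69, 5.88 and 4.53 FPKM against 0.0493, 0.252 and 0.0729 FPKM (log2 difference -2.50, SE 0.135, adjusted p = 0.00326, limma). Prg2, which encodes major basic protein, fell from 9.70 ± 3.27 to 0.428 ± 0.311 FPKM and the transcription factor Cebpe from 4.18 ± 1.31 to 0.0776 ± 0.0677 FPKM (adjusted p = 0.0427 and 0.0271, limma). All 3 were under 1 FPKM in every dGATA library, so they passed the filter only through wild type and could be counted only as falls. Across 13 alternative settings their adjusted p ran up to 0.0828 for Ccr3, 0.372 for Prg2 and 0.332 for Cebpe. Basophils and mast cells also carry some of these transcripts. Whether the members differ from the eosinophil markers in their change was not tested.

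The genes whose pattern over the 6 lungs was most like that of Cpa3 were not mast cell genes. Likeness was the root mean square difference of log2(FPKM + 1) after centring each gene on its mean, where Cpa3 itself varied with a root mean square of 0.697. The 5 nearest of 13726 genes were Col1a1 (0.192), Siglecg (0.194), Col3a1 (0.203), Cd209d (0.210) and Cpxm1 (0.221). Cma1 ranked 9th, at 0.229, Tpsb2 25th, at 0.287, Mcpt4 611th, at 0.485, and Tpsab1 860th, at 0.514. Col1a1, a chain of type I collagen, stood at 122, 133 and 92.2 FPKM in wild type and 42.0, 93.7 and 87.9 FPKM in dGATA, again with dGATA lung 1 lowest. With 6 libraries these distances are a description.

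**Figure D3:**
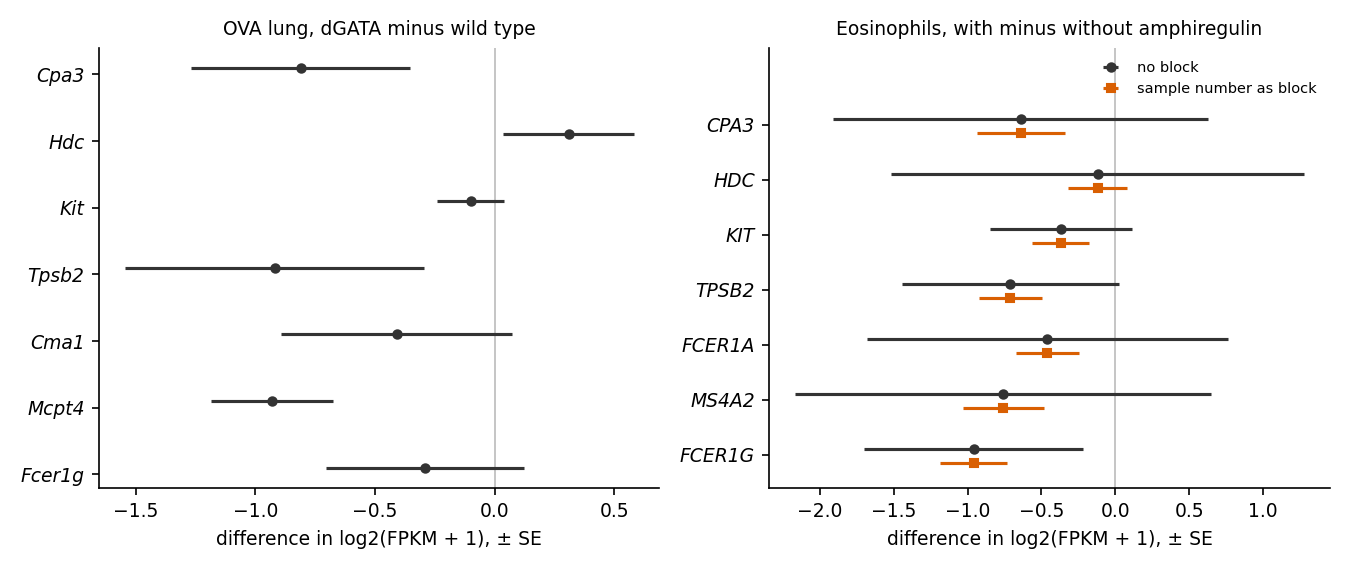
Differences in log2(FPKM + 1) of the members that passed the filter, with limma's SE; left, 7 members in OVA lung; right, 7 members in eosinophils, where the orange squares have the sample number as a block. In lung Mcpt4 lies at -0.93 with an SE of 0.254, and in eosinophils the block shortens every bar.

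The proteases on chromosome 14 lie in one stretch that ends in the granzymes of cytotoxic cells, and the protease genes at one end were detected mainly in lung while Gzmb at the other end was highest in Th2 cells (genes chosen by position after the values had been seen). In wild-type lung the mean level was 8.37 FPKM for Cma1, 27.6 FPKM for Mcpt1, 19.1 FPKM for Mcpt2 and 3.11 FPKM for Mcpt4. In Th2 cells these 4 genes did not exceed a mean of 0.0227 FPKM in either group. At the other end, Gzmb, a granzyme, reached 1330 ± 470 FPKM with IL-2 and 1800 ± 431 FPKM with IL-33, against 6.74 ± 1.18 and 4.55 ± 3.33 FPKM in wild-type and dGATA lung. These lung means were above those of Mcpt4. Gzmc stood at 4.00 ± 1.1 and 8.52 ± 5.30 FPKM in the Th2 groups and at 0.0532 and 0.118 FPKM in lung. Of the genes between Mcpt4 and Gzmc, none had a group mean above 0.594 FPKM, the level of Mcpt8 in wild-type lung.

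**Figure D4:**
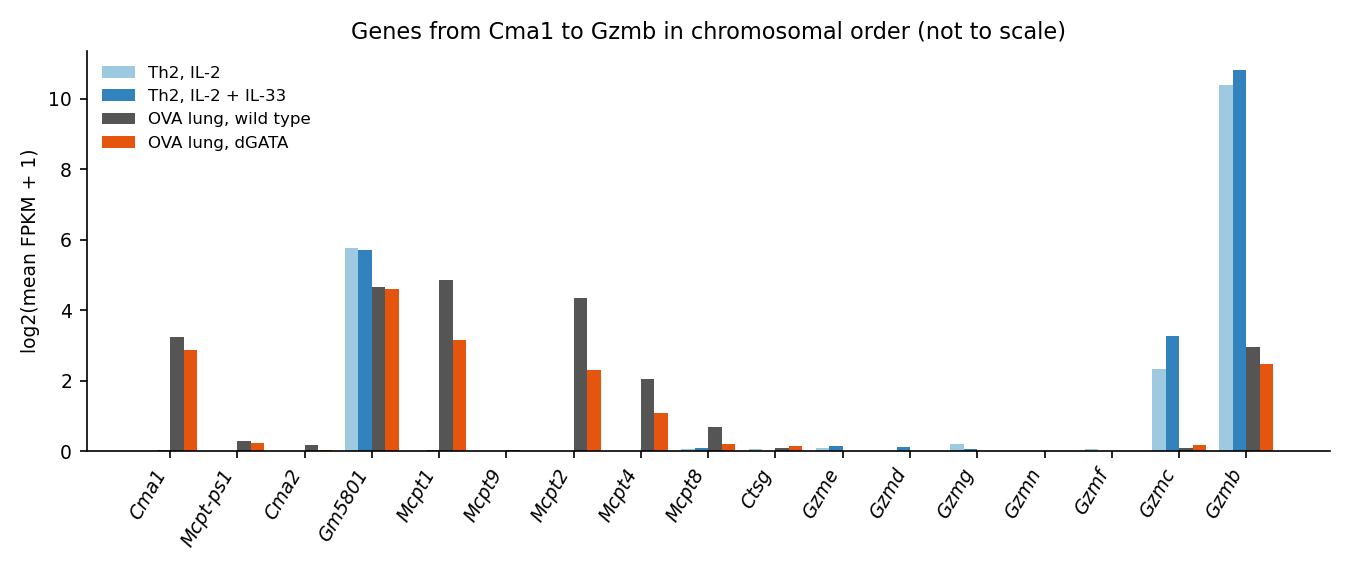
Mean level of each gene from Cma1 to Gzmb, in chromosomal order with equal spacing, as log2(mean FPKM + 1); the bars are the 2 Th2 and the 2 lung groups (n = 3 each). Cma1, Mcpt1, Mcpt2 and Mcpt4 have visible bars in lung, Gzmb is far higher in Th2 cells than its 6.74 and 4.55 FPKM in lung, and Gm5801, between Cma2 and Mcpt1, has signal in all 4 groups.

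In the human eosinophil libraries several members were abundant and spread widely between sample numbers. The numbers 2, 3 and 4 each name 1 library without and 1 with amphiregulin, and libraries of the same number deviated together. Over all genes tested, numbers 2 and 3 also deviated together across the conditions, somewhat less closely. CPA3 stood at 8.12, 142 and 8.42 FPKM without amphiregulin (numbers 2, 3 and 4) and at 9.39, 52.9 and 4.76 FPKM with it. HDC stood at 11.4, 184 and 9.75 FPKM against 14.5, 140 and 7.86 FPKM. Number 3 was at least 5.63 times the highest other library in both conditions for CPA3 and at least 9.64 times for HDC. The alpha and beta chains of the IgE receptor did the same: FCER1A stood at 23.8, 207 and 11.5 FPKM against 21.6, 105 and 9.39 FPKM, and MS4A2 at 3.61, 64.7 and 2.21 FPKM against 3.38, 26.7 and 0.655 FPKM.

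Of 12635 genes tested, 15 (0.119%) had number 3 at least 5 times above both other numbers in both conditions, and 3 of them were members: HDC, MS4A2 and CPA3. FCER1A, at 8.72 and 4.87 times, lay just outside. Among the 15 were also GATA2, a factor of mast cells and basophils, at 14.4, 184 and 19.0 FPKM without and 20.3, 167 and 15.5 FPKM with amphiregulin, and the globin genes HBB, HBG1 and HBG2. Summed erythroid markers were 80300 and 45300 FPKM in number 3, against 1730 to 24900 FPKM in the other libraries; their part in the members' levels was not tested. The 5 genes nearest to CPA3 in pattern among 12634 were MS4A2 (root mean square difference 0.304), FCER1A (0.345), HDC (0.378), SLC45A3 (0.418) and GATA2 (0.431), where CPA3 itself varied by 1.66. IL4, outside the naming rule, showed the same order, at 0.154, 8.49 and 0.345 FPKM without and 0.189, 3.86 and 0 FPKM with amphiregulin. CMA1, the human chymase, was listed at 0 in 5 of the 6 libraries and stood at 0.251 FPKM in number 3 with amphiregulin.

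KIT and the tryptase TPSB2 were ordered differently. KIT was highest in number 4, at 16.1, 18.7 and 36.3 FPKM without and 13.5, 10.9 and 32.7 FPKM with amphiregulin. TPSB2 stood at 158, 144 and 44.3 FPKM against 76.5, 126 and 23.1 FPKM, and its close copy TPSAB1 at 113, 109 and 29.8 FPKM against 53.8, 93.2 and 10.4 FPKM. Without amphiregulin the tryptases were thus highest in number 2, where CPA3, HDC and MS4A2 were low, and with it they were highest in number 3. FCER1G, which eosinophils, neutrophils and macrophages also use, was the highest member, at 546, 606 and 132 FPKM against 195, 348 and 85.9 FPKM. For this gamma chain number 3 was 1.11 and 1.79 times the highest other library without and with amphiregulin.

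The comparison with amphiregulin asked how it alters eosinophils. All 7 members that passed the filter had a difference below 0, with a median of -0.643, against 47.8% below 0 and a median of 0.0167 over all genes tested. Rescaled to a common sum, 6 of the 7 were below 0 with a median of -0.463, against 0.209 over all genes. None was called, with or without the block: limma called 0.206% of the 12635 genes, 26 in all, without it and 1.12%, 141 in all, with the sample number as a block. Without the block 0 members and with it 3 members had an unadjusted p under 0.05, where 393 and 1423 of the 12635 genes tested had one. FCER1G had the largest difference, -0.96, with an SE of 0.742 and an adjusted p of 0.999 without the block, and an SE of 0.226 and an adjusted p of 0.137 with it (limma). TPSB2 differed by -0.71 (block SE 0.211, adjusted p = 0.237, limma) and MS4A2 by -0.76 (block SE 0.274, adjusted p = 0.347, limma).

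KIT, TPSB2, FCER1A, MS4A2 and FCER1G were lower with amphiregulin under all 3 sample numbers, 5 of the 7 members that passed the filter, where 14.9% of all genes tested were. The count depended on scaling. Rescaled to a common sum, TPSB2 and FCER1G remained, 2 of 7 against 6.52% of all genes, while under number 2 the ratios of KIT, FCER1A and MS4A2 became 1.12, 1.22 and 1.26. With median-of-ratios scaling the same 5 members were lower under all 3 numbers, against 15.8% of all genes. As deposited, the ratio with over without ran, for numbers 2, 3 and 4, 0.357, 0.574 and 0.652 for FCER1G, 0.484, 0.875 and 0.521 for TPSB2 and 0.936, 0.412 and 0.296 for MS4A2. CPA3 and HDC were lower under numbers 3 and 4 and higher under number 2, at ratios of 1.16 and 1.27. Differences without the block rested on single libraries: without number 3 of the untreated group, CPA3, HDC, FCER1A and MS4A2 turned to 0.67, 1.21, 0.73 and 0.60, and without number 4 of the treated group to 0.04, 0.68, 0.29 and 0.15. HDC turned to 0.28 without number 2 of the treated group, and to 0.08 when values were rescaled to a common sum. Without both libraries of number 4 the block fit, then with 1 residual degree of freedom, called 1 member, FCER1G (log2 difference -1.14, adjusted p = 0.0493, limma). Of the 12635 genes tested, the same fit called 422 higher and 261 lower, against 67 and 74 with all libraries.

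Markers of other cells differed with amphiregulin beside the members. Summed macrophage markers were 2450, 2550 and 333 FPKM without and 698, 1280 and 208 FPKM with it, and summed neutrophil markers 21800, 11500 and 8140 against 14500, 10100 and 6760 FPKM. All 9 tested neutrophil markers were below 0, with a median of -1.07. Summed erythroid markers were 2950, 80300 and 24900 against 1730, 45300 and 13000 FPKM, with 3 of 5 tested markers below 0. Summed T cell markers were 651, 472 and 298 against 370, 314 and 169 FPKM; all 11 were below 0, with a median of -0.618, and 0 were called with or without the block. Summed dendritic cell markers were 162, 96.2 and 33.5 against 398, 340 and 32.8 FPKM. Under the block, 4 macrophage markers fell and 1 rose, 3 neutrophil markers fell and 2 dendritic cell markers rose. Of these 2, CD209 passed the filter only through the libraries with amphiregulin and could be called only as a rise. The monocyte receptor CD14 stood at 246, 221 and 14.3 FPKM without and 10.8, 12.5 and 0.852 FPKM with amphiregulin (block adjusted p = 0.00194, limma). The mannose receptor MRC1 stood at 2.17, 2.75 and 0.535 FPKM without and 55.3, 93.8 and 16.8 FPKM with it (adjusted p = 0.00127 with and 0.211 without the block, limma). The part of these shifts in the members' values was not tested.

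The other IgE receptor, FCER2 (CD23, the low-affinity receptor), lay on the other side of 0 from the chains of the high-affinity receptor. It stood at 0.402, 0 and 0.722 FPKM without amphiregulin and at 472, 448 and 88.2 FPKM with it. Every treated library was far above every untreated one. The log2 difference was 7.63 (SE 0.659, adjusted p = 0.0226, limma), and with the block the adjusted p was 0.00198. Among the 7 tested genes of the Fc receptor list it was the 1 call without the block. FCER2 passed the filter only through the libraries with amphiregulin, so it could be called only as a rise. Leaving out single libraries ended the call in 5 of 6 cases, with adjusted p up to 0.152, leaving out small RNA features gave 0.0921, and a pseudocount of 0.1 gave 0.0548. Over the 17 alternatives the log2 difference ran from 7.05 to 9.58, above 0 in each.

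Under the block FCGR3A, an IgG receptor that signals through the gamma chain, fell from 19.7, 42.8 and 6.51 FPKM to 2.01, 5.59 and 2.46 FPKM (adjusted p = 0.0440, limma; 0.999 without the block). Of 13 tested other mast cell genes, 0 were called without the block and 9 were below 0; HS3ST1, a heparan sulfate sulfotransferase, stood at 4.85, 4.09 and 1.44 FPKM against 0.0719, 0.661 and 0 FPKM (adjusted p = 0.757 without and 0.0432 with the block, limma). HS3ST1 passed the filter only through the libraries without amphiregulin, so it could be counted and called only as a fall. Of the protease inhibitors SLPI stood at 101, 35.1 and 4.69 FPKM against 27.0, 11.4 and 0 FPKM (adjusted p = 0.999 without and 0.0145 with the block, limma). Of 9 basophil genes, 30 signalling genes, 5 histamine genes and 5 growth factors tested, 0 were called with or without the block. The lowest p in these lists belonged to IL3RA, RASGRP1, ABP1 and IL10, each with an adjusted p of 0.999 from limma without the block.

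**Figure D5:**
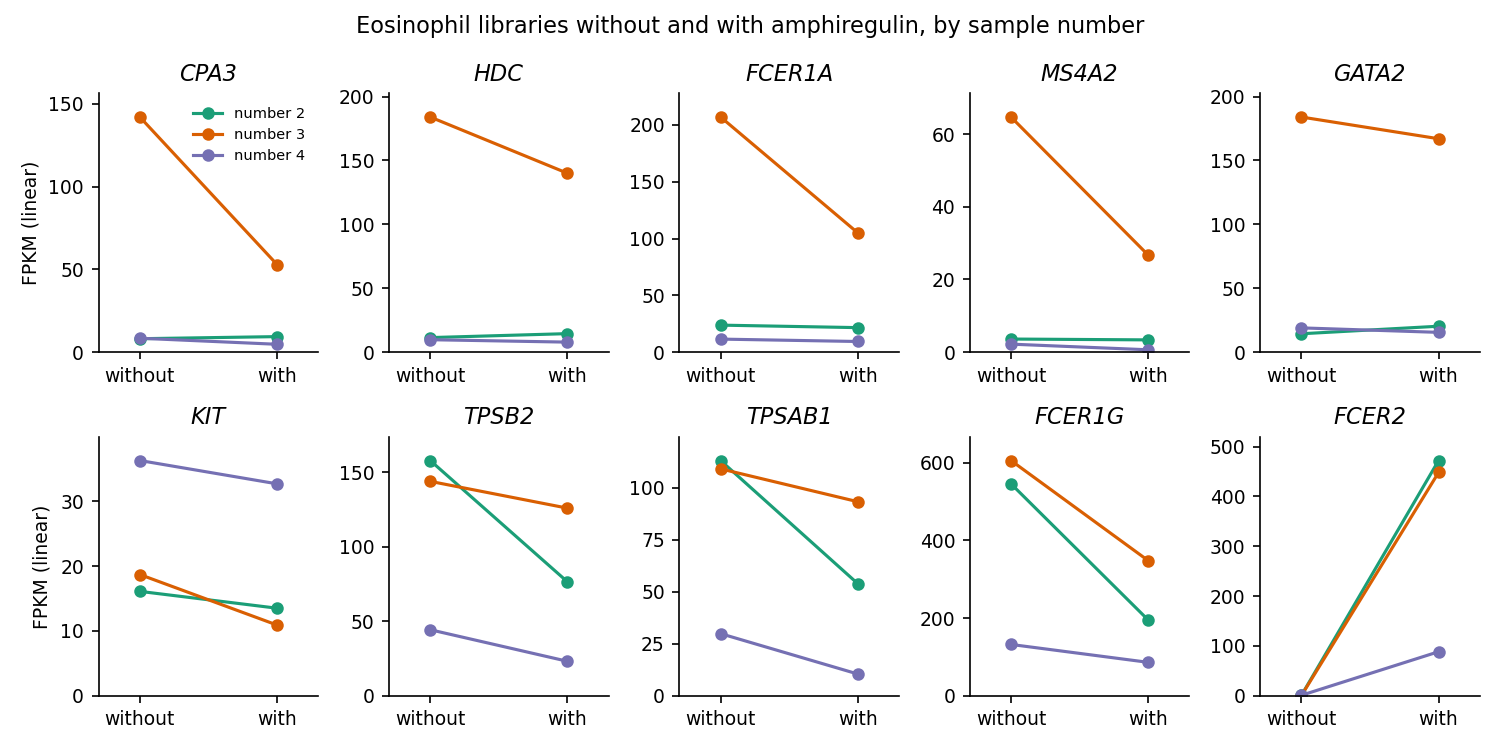
FPKM of 8 mast cell genes, FCER1G and FCER2 in the eosinophil libraries without and with amphiregulin, on linear axes; each line joins the 2 libraries of one sample number. Number 3 stands above numbers 2 and 4 for CPA3, HDC, FCER1A, MS4A2 and GATA2 in both conditions, for the tryptases only with amphiregulin and for KIT in neither. FCER2 is near 0 without amphiregulin in all 3 numbers.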

How the data were processed

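The deposited tables hold FPKM per gene for 18 libraries; per the submitters' processing notes the authors used Bowtie 0.12.8, TopHat 1.3.2, Cufflinks 2.0.2 and mm10. The build of the human tables and whether counting used strand are not given in the sources used here. FPKM were summed per symbol; 116 sex-linked human symbols were left out. Adding 1 to the starts made 35.0% of 20637 match the GENCODE annotation, against 3.6% as deposited. Each comparison used its 6 libraries. Genes with at least 1 FPKM in at least 3 libraries were tested on log2(FPKM + 1), which understates changes of low genes, with limma 3.58.1 (trend) in R 4.3.3; an adjusted p below 0.05 was a call. A gene under 1 FPKM in every library of 1 group could pass only through the other group, which fixed the direction of its difference. Members below the filter were tested by exact two-sided permutation. The fit was tested on simulated data. Deviations of eosinophil libraries with the same number correlated (0.399, 0.356, 0.670; threshold 0.1), so the block fit is given too. Numbers 2 and 3 also correlated with each other across the conditions, at 0.308 and 0.281, above the same threshold. They are therefore little told apart by these correlations. Named genes were all members, up to 4 called genes per list or else the 1 with the lowest p, Gata1, and the 5 genes nearest Cpa3; those of the cell type marker lists are given by sums and counts except where named. The members and lists were chosen with earlier results of these data known.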

Additional observations from a re-analysis of the deposited data

How the results depend on the processing

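No member was called in the lung under any alternative tried, and 1 was called elsewhere under 1 setting each: Hdc in Th2 cells without IL-33 library 6 (members called ranged from 0 to 1 when libraries were left out) and FCER1G under the replicate block without pair 4. Of 120 member values recomputed in the lung 117 kept their direction and 3 turned; in the eosinophils 11 of 119 turned, and in the Th2 cells 0 of 11. With 1 library left out, the values that turned ranged from -0.77 to 0.07 for Cma1, -0.71 to 0.17 for Fcer1g and -0.23 to 0.01 for Kit in lung, and from -1.58 to 0.67 for CPA3, -1.31 to 1.21 for HDC, -1.39 to 0.73 for FCER1A and -1.88 to 0.60 for MS4A2 in eosinophils. HDC also turned to 0.08 rescaled to TPM and to 0.02 under the block without pair 3. The cause was not tested. All genes called in the eosinophils numbered 26, and 7 with a pseudocount of 0.1, 8 with a filter of 2 FPKM, 0 without small RNA features (371 at an unadjusted p under 0.05, limma), 141 with the replicate block, 196 when the block was combined with dropping small RNA features, 4 to 72 with 1 library left out, and, with 1 residual degree of freedom, 218 without pair 2, 19 without pair 3 and 683 without pair 4. In the lung they numbered 13, and 3 with the replicate block, 96 with 12 mouse libraries in 1 fit and 2 to 16 with 1 library left out. In the Th2 cells they numbered 4331, and 2740 to 4862 with 1 library left out. Lung libraries with the same number had correlations of -0.286, -0.116 and -0.243, so the numbers were not taken as pairs; the replicate block left 0 members called there. No paired analysis was possible in the Th2 cells because the labels give its 2 groups no shared number. The block with a pair left out, the block combined with dropping small RNA features, and rescaling the count of members lower under every number, were chosen after seeing the data. Total depth is unknown, so no counting error can be given for members listed near 0.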
